A study of Mus musculus with 7 samples.

Results

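Imprinted loci were examined in the open chromatin of mouse muscle stem cells (MuSCs), which express PAX7 and repair skeletal muscle. The members were 9 genes, H19, Igf2, Dlk1, Meg3, Peg3, Grb10, Igf2r, Plagl1 and Mest, out of 32815 genes with an annotated transcription start site (TSS). They were chosen by name, and each was taken as its RefSeq span on mm10 (GRCm38) with 20 kb on both sides, called a window here. A promoter was any annotated TSS with 1 kb on both sides. The data were ATAC-seq peaks, that is, stretches of DNA cut often by the Tn5 transposase, which works where chromatin is open. Each library came from 5000 freshly isolated MuSCs of hindlimb muscle. There were 4 Nedd4L-cKO libraries and 3 WT libraries, each from a male mouse a few weeks old. The study asked whether deletion of Nedd4L, an E3 ubiquitin ligase, alters chromatin accessibility. Nedd4L-cKO mice carried Nedd4L fl/fl and Pax7 cre/+, a Cre that is active wherever Pax7 has been expressed and so also in the muscle fibers that descend from such cells. The cells were sorted by surface proteins (ITGA7+, CD31-, CD45-, CD11b- and SCA1-).

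Imprinted genes are transcribed from 1 parental allele, and the choice is held by control regions whose DNA is methylated on the maternal or the paternal copy in the germline. Many of them set the growth of the embryo and are turned down after birth, and the H19-Igf2 and Dlk1-Meg3 clusters have been tied to the quiescence of adult stem cells. The peak lists carry no allele, so a site open on 1 allele in every cell, a site open on both alleles in some cells, and a weakly open site cannot be told apart. Likewise, fewer cells of a type and less open DNA per cell cannot be told apart in these bulk libraries.

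MACS2 kept 14.4 to 20.1 M tags (mega) per library and called 69302 to 79158 peaks. The peaks at the targeted gene do not show whether its loxP-flanked exon was lost: the Nedd4l window held 31 to 35 peaks in the Nedd4L-cKO libraries and 33 or 34 in the WT libraries. Of the promoters of 10 MuSC marker genes, 10 were called in all 7 libraries, against 0 of 6 immune, 2 of 5 endothelial, 1 of 4 fibro-adipogenic and 3 of 5 myofiber marker genes. Of all protein-coding genes, 62.5% had such a promoter call in all 7 libraries. The endothelial genes called were Kdr and Tek, while Pecam1, Cdh5 and Emcn had no call in any library. Col1a1 was the fibro-adipogenic gene called, Dcn was called in 5 libraries and Pdgfra and Ly6a in none. Acta1, Myh4 and Myh1 were the myofiber genes called, and Ckm and Ttn were called in 5 and 3 libraries. The part of these other cell types in the results was not tested. WT replicate 3 was the 1 library whose file header names lane 2, so the 6 libraries of lane 1 are WT replicates 1 and 2 with the 4 Nedd4L-cKO libraries.

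Promoter sequences are shown for 6 members, because each of these starts lay within 1 kb of a peak in all 7 libraries and because they differ in 2 short motifs tied to imprinted control. They are from RefSeq on GRCm38.p6, the assembly of mm10, and run 5′ to 3′ on the gene's strand from 250 bases before the TSS to the 50 bases from it on. Peg3 is chr7:6730370-6730669 (minus strand), Plagl1 is chr10:13090582-13090881 (plus strand) and Mest is chr6:30737800-30738099 (plus strand). Meg3 is chr12:109540746-109541045 (plus strand), Igf2 is chr7:142658755-142659054 (minus strand) and Grb10 is chr11:12037371-12037670 (minus strand). Capitals mark TGCCGC, the letters recognised by the zinc finger protein ZFP57 at methylated control regions, or GGNGGCAG, letters from the binding motif of the insulator protein CTCF, on either strand.
Peg3: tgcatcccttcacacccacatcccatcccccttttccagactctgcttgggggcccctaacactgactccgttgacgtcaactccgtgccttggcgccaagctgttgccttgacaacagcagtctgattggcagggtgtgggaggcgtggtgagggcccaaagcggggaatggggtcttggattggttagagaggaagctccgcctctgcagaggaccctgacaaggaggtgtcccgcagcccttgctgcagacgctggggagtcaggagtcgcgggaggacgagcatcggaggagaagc
Plagl1: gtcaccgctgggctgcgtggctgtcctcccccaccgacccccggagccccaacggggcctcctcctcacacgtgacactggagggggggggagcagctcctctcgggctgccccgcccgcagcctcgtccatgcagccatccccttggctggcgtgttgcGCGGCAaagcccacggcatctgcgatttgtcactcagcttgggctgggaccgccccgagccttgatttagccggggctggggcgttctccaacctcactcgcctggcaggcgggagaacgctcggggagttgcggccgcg
Mest: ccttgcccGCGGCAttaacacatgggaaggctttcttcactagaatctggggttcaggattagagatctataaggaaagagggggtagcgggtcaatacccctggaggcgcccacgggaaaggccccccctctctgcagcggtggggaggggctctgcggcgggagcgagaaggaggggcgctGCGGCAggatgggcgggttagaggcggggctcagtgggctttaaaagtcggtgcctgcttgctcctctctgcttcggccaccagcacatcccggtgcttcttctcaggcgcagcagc
Meg3: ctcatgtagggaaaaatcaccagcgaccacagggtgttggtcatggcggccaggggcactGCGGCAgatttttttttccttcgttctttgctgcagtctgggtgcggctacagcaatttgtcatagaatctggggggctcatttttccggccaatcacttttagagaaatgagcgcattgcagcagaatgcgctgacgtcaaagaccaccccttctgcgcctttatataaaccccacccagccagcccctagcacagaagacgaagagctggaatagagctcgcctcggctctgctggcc
Igf2: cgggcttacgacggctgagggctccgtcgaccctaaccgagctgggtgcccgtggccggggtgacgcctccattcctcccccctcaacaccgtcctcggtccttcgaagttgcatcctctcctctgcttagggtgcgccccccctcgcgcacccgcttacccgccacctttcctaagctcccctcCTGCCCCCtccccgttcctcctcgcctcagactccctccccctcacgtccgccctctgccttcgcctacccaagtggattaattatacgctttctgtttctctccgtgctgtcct
Grb10: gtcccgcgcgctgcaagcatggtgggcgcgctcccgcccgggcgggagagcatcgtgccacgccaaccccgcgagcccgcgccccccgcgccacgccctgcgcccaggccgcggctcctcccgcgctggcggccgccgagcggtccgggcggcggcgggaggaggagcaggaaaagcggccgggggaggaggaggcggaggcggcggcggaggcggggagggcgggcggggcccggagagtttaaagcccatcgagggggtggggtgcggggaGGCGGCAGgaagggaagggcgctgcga

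Matches were read as letters alone. No promoter sequence was at hand for H19, which was not searched. TGCCGC was found on either strand in 6 of 15 promoters of the other members, against 11.6% of all 32851 promoters of the same length. Both Mest starts that hold it lie 3 bases apart and share nearly all their sequence, so they are not independent. The other 4 were Plagl1, Meg3, 1 Igf2 start and the Grb10 start, where the letters overlap the CTCF letters on the same bases. GGNGGCAG was found in 2 of 15, the Igf2 and Grb10 starts shown, against 12.6% of all promoters. AANATGGC, letters bound by the factor YY1, was found in 0 of 15, against 6.05%. Neither of the first pair occurs in the Peg3 start, which had the highest pileup of the member promoters. CpG content also varied among the starts: the Grb10 start shown held 45 CpG dinucleotides, the Igf2r start 34, the Peg3 start 13 and the Airn start 3, and the median of all promoters was 7.

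All 9 members had a promoter peak in all 7 libraries. Among all genes with a TSS the share was 50.8%, among protein-coding genes 62.5% and among lncRNA genes 28.7%. The calls differed in strength. With a -log10 q of at least 5 asked of a peak, 4 of 9 members kept a promoter peak in every library (Meg3, Peg3, Plagl1 and Mest), against 40.7% of all genes. At that setting Igf2r had 6 libraries and H19, Igf2, Dlk1 and Grb10 had 0. Other definitions moved the count less. With the outermost start alone it was 7, without Igf2 and Mest, and where the peak had to cover the TSS it was also 7, without H19 and Dlk1. The share of all genes at either definition was not computed.

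Strength was compared within a library as a percentile, on which its lowest peak is 0 and its highest 100. Pileup is the mean coverage of the peak by extended tags, and fold enrichment is that pileup over the local background of the same library. Promoters as a whole ranked high: over 16660 genes with a promoter peak in all 7 libraries, the median percentile was 85.4 by pileup and 77.3 by fold enrichment. The members mostly lay below. By pileup 5 of 9 were among the lowest 25% of these promoters and 2 were above their median. By fold enrichment 8 of 9 were among the lowest 25%, and Plagl1 alone was above the median. These positions are given without a test. Where several peaks lay at a promoter or control stretch, the highest pileup and the highest fold enrichment were taken separately, so both need not come from the same peak.

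**Figure D1:**
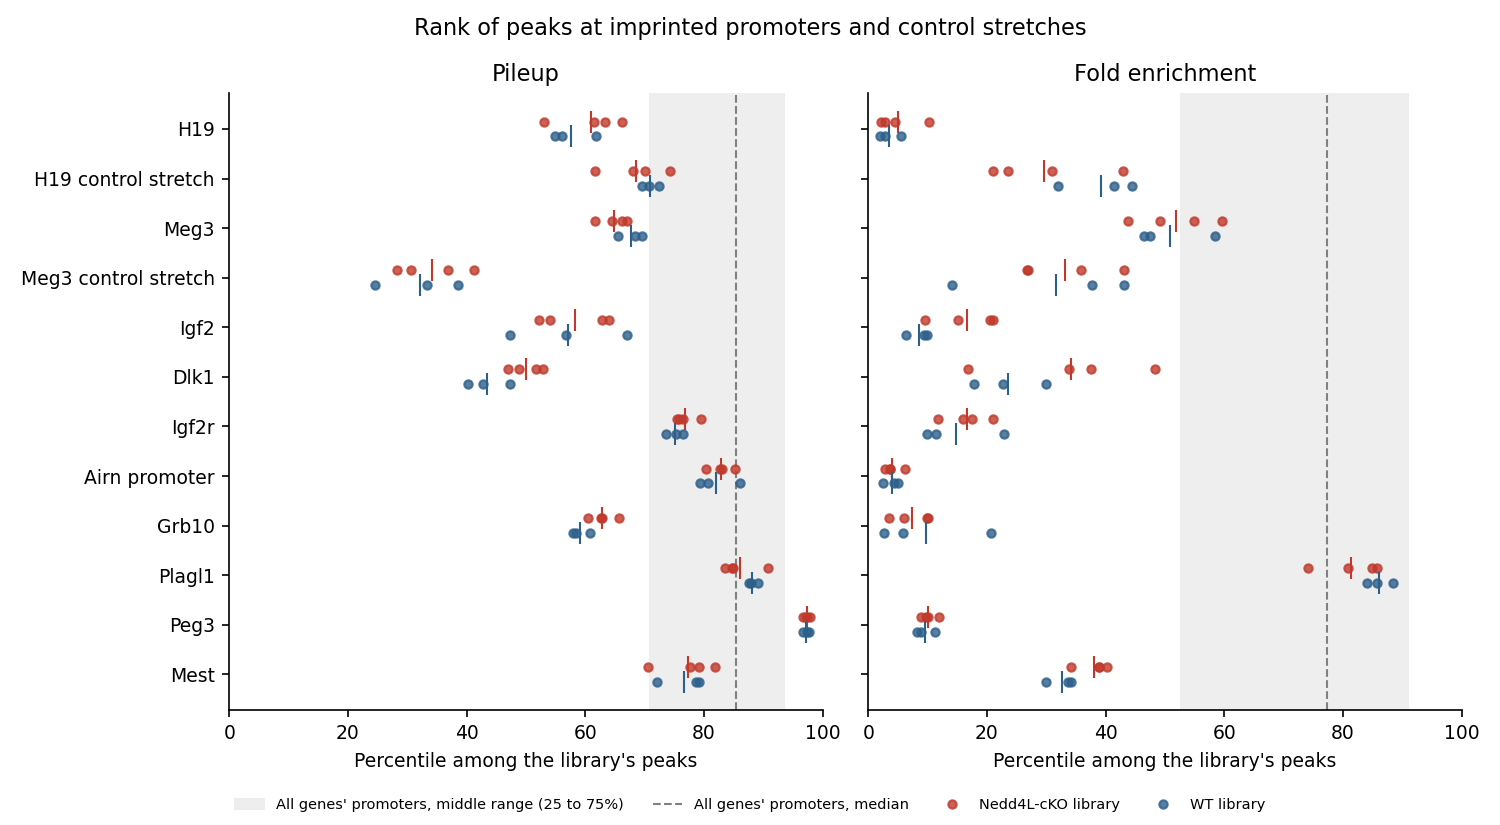
Percentile of the peak at each promoter or control stretch among all peaks of its library (x axis, 0 to 100), by pileup (left) and by fold enrichment (right). Points are libraries, short bars group means, and the grey band and dashed line show the promoters of all genes called in all 7 libraries; Peg3 sits at 96.7 to 97.9 by pileup and at 8.21 to 11.9 by fold enrichment.

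The noncoding RNA genes H19 and Meg3 are both transcribed from the maternal allele. The H19 promoter peak ranked at pileup percentiles 63.3, 66.2, 53.0 and 61.5 in Nedd4L-cKO replicates 1 to 4 and 61.8, 56.0 and 55.0 in WT replicates 1 to 3. Its fold percentiles ran from 2.00 to 10.3, with a median of 2.90 that lay above 1.07% of promoters. The groups overlapped on both scales, and the exact permutation test over 35 splits (two-sided, smallest possible p 0.0286, unadjusted, as for all percentiles) gave p = 0.429 by pileup and p = 0.657 by fold enrichment. The call was a weak one, with a -log10 q of 1.75 to 3.33, and the peak spanned the TSS itself in 1 of 7 libraries.

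The stretch 2 to 4 kb upstream of the H19 TSS, where the methylated control region with CTCF sites lies, held 2 regions called in all 7 libraries. They were chr7:142580108-142580917 and chr7:142581661-142582167. The highest pileup of the stretch ranked at percentiles 68.0, 70.1, 61.6 and 74.2 in the Nedd4L-cKO and 72.4, 70.7 and 69.6 in the WT libraries. The highest fold enrichment of the stretch, in Nedd4L-cKO replicate 3 from the second region and not the first, ranked at 21.1 to 44.4, above the promoter in each library. In the first region alone the fold percentiles ran from 17.4 to 44.4. Genotypes overlapped (difference -2.44 by pileup, exact permutation p = 0.571, and -9.61 by fold enrichment, exact permutation p = 0.200). By pileup the difference was -0.14 without Nedd4L-cKO replicate 3 and -4.35 without Nedd4L-cKO replicate 4. Of the regions of the H19 window called in every library, the highest by pileup was neither of these but chr7:142557885-142558987, at the start of Nctc1, a noncoding transcript near a muscle enhancer of the cluster. It lay at a median pileup percentile of 83.4 and a fold percentile of 2.78.

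At Meg3, the peak over the first start ranked at pileup percentiles 61.6, 64.5, 67.0 and 66.1 in the Nedd4L-cKO libraries and 68.3, 65.4 and 69.5 in the WT libraries. The Nedd4L-cKO values were lower on average by a difference of -2.94 with overlapping groups (exact permutation p = 0.171). By fold enrichment Meg3 stood in the middle of all peaks, from 43.8 to 59.6, and the difference was 1.05 (exact permutation p = 0.857). The same region, chr12:109540010-109543106, reached a start of the neighbouring transcript Gm34081 on the other strand. The second Meg3 start had no peak within 1 kb in any library.

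The control region between Dlk1 and Meg3, taken as 10 to 16 kb upstream of the Meg3 TSS, held 1 region called in all 7 libraries, chr12:109527947-109530621. Its highest pileup in each library ranked at percentiles 41.2, 28.2, 30.6 and 36.8 in the Nedd4L-cKO and 38.6, 24.5 and 33.4 in the WT libraries. By pileup the region lay below the median of the member regions, and the genotypes overlapped. Nedd4L-cKO replicates 1, 2 and 3 and WT replicate 1 had 2 peaks in the stretch, and the value of Nedd4L-cKO replicate 1 comes from a short peak of 452 bp, other than the one that was highest elsewhere. Fold percentiles ran from 14.1 to 43.1, with a median of 35.8. Genotypes differed by 2.06 percentile points by pileup (exact permutation p = 0.714) and by 1.53 by fold enrichment (exact permutation p = 0.943).

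Igf2 and Dlk1 encode growth-related ligands made from the paternal allele: Igf2 a secreted insulin-like growth factor, Dlk1 a transmembrane protein related to the Notch ligands. Of 4 Igf2 starts, the one at chr7:142658804 was called in 7 libraries, the one at chr7:142661271 in 5 and the one at chr7:142657496 in 4. The outermost start at chr7:142666816 was called in 0. The highest pileup at any Igf2 start ranked at percentiles 54.1, 52.1, 63.9 and 62.8 in the Nedd4L-cKO and 66.9, 56.8 and 47.3 in the WT libraries, with the widest spread of the members (SD 5.99, n = 4, and SD 9.83, n = 3). The highest fold enrichment at any Igf2 start, which in Nedd4L-cKO replicates 2 and 4 and WT replicates 1 and 3 belongs to another peak than the highest pileup, ranked at 9.57, 21.0, 20.6 and 15.2 in the Nedd4L-cKO and 9.86, 6.39 and 9.41 in the WT libraries. Nedd4L-cKO replicate 1 lay among the WT values and the other 3 above them, and the difference of 8.03 gave exact permutation p = 0.0857. In the 1 region called in all 7 libraries, chr7:142658434-142659460, the fold percentiles were 9.57, 21.0, 20.6 and 10.2 in the Nedd4L-cKO and 9.86, 6.39 and 4.59 in the WT libraries, also with overlapping groups.

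Dlk1 had the lowest promoter pileup of the 9 members. Its percentiles were 48.8, 52.8, 51.7 and 46.9 in the Nedd4L-cKO and 47.3, 42.8 and 40.3 in the WT libraries. The groups overlapped by a single pair of libraries, Nedd4L-cKO replicate 4 below WT replicate 1. The difference of 6.61 (50.1 ± 2.71, SD, n = 4, against 43.5 ± 3.57, SD, n = 3) gave exact permutation p = 0.0857. In the 6 libraries of lane 1, the groups overlapped as well, since both libraries of that pair are in lane 1. By fold enrichment the values ran from 16.8 to 48.3 (difference 10.6, exact permutation p = 0.257), and the difference was 5.90 without Nedd4L-cKO replicate 2 and 16.4 without Nedd4L-cKO replicate 4. The strongest region of the Dlk1 window lay upstream of the gene, chr12:109440888-109442157, at a median pileup percentile of 73.2.

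Igf2r, the maternally expressed receptor that takes IGF2 to the lysosome, had a promoter peak at pileup percentiles 75.9, 76.4, 75.4 and 79.5 in the Nedd4L-cKO and 75.3, 76.5 and 73.6 in the WT libraries. These were among the tightest values of the members. The difference of 1.67 gave exact permutation p = 0.371, and fold percentiles ran from 9.87 to 22.9. Inside the gene lies the start of Airn, the paternally expressed antisense RNA that silences Igf2r. Its promoter peak stood higher by pileup, at 79.3 to 86.0, but lower by fold enrichment, at 2.54 to 6.25. The difference between genotypes was 0.81 by pileup (exact permutation p = 0.714).

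The strongest regions of the Igf2r window were at neither start. The region chr17:12757870-12760835, within the Igf2r span between both promoters and at no annotated start, ranked at pileup percentiles 98.7, 98.0, 99.2 and 99.1 in the Nedd4L-cKO and 99.0, 98.9 and 98.5 in the WT libraries. It was the highest of all 42 member regions called in every library. A second one, chr17:12750598-12751960, ranked at 91.0 to 95.2. By fold enrichment the first stood at 9.97 to 18.9, so that a high pileup again went with a low fold rank.

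Grb10 encodes an adaptor that dampens insulin and IGF receptor signalling. The peak at its outer start ranked at pileup percentiles 60.5, 62.8, 62.6 and 65.6 in the Nedd4L-cKO and 60.8, 58.4 and 58.0 in the WT libraries. The groups overlapped by 1 pair, Nedd4L-cKO replicate 1 and WT replicate 1, and the difference of 3.81 gave exact permutation p = 0.0857. Ranked among promoter peaks alone, the difference was 2.74 and exact permutation p = 0.0286, the smallest the design allows and unadjusted among 20 comparisons ranked this way. By fold enrichment the difference was -2.33, the other way (exact permutation p = 0.8). The internal Grb10 start had no peak within 1 kb in any library. A region called in all 7, chr11:12025461-12026789, lay 1182 bp from it, at fold percentiles of 63.9 to 79.1. The highest region of this window by pileup, chr11:11931844-11933133 near the end of the gene, had a median pileup percentile of 87.4.

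Plagl1 and Peg3 encode paternally expressed zinc finger proteins. Plagl1 was the single member whose promoter was high on both scales: pileup percentiles were 90.8, 84.9, 84.7 and 83.5 in the Nedd4L-cKO and 87.9, 89.0 and 87.5 in the WT libraries, and fold percentiles ran from 74.1 to 88.4. Nedd4L-cKO replicate 1 was the highest and the other 3 Nedd4L-cKO libraries lay below the WT libraries. The difference of -2.17 by pileup gave exact permutation p = 0.314, and that of -4.62 by fold enrichment gave exact permutation p = 0.257. The peak, chr10:13090243-13091570, also covers the start of Hymai, a transcript that begins beside it.

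Peg3 had the strongest member promoter by pileup and one of the weakest by fold enrichment. Its pileup percentiles were 96.7, 97.3, 97.2 and 97.9 in the Nedd4L-cKO and 97.4, 97.6 and 96.7 in the WT libraries, and its median lay above 89.3% of promoters. Its fold percentiles were 8.89, 11.9, 9.69 and 10.1 in the Nedd4L-cKO and 8.21, 8.92 and 11.3 in the WT libraries, and its median lay above 3.60% of promoters. The background implied by the 2 values, pileup divided by fold enrichment, was 20.6 at Peg3 against a median of 7.75 over promoters, above 98.4% of them. The call, 3174 to 3276 bp long, was the longest of the member promoters in every library, and the background was estimated from the same tags over 10000 bp because there was no control. The part of that length in the fold rank was not tested. Genotypes differed by 0.03 by pileup (exact permutation p = 0.943). The region chr7:6727366-6730681 also covers the start of Usp29, which is transcribed away from Peg3, and the start of Zim1 in the same window had a region, chr7:6695898-6697171, at a median pileup percentile of 86.4.

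Mest, a paternally expressed gene for a protein with a hydrolase fold, showed a single open start. The pair of starts at chr6:30738050 and chr6:30738053 was called in 7 libraries and the start at chr6:30733506 in 0. Pileup percentiles were 70.5, 79.2, 77.7 and 81.9 in the Nedd4L-cKO and 79.1, 78.6 and 72.2 in the WT libraries, with the lowest value in Nedd4L-cKO replicate 1. Fold percentiles were 40.3, 38.9, 34.1 and 38.8 in the Nedd4L-cKO and 29.9, 34.2 and 33.7 in the WT libraries. Nedd4L-cKO replicate 3 fell just below WT replicate 2, the other 3 lay above all WT libraries, and the difference of 5.46 gave exact permutation p = 0.0857.

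Across the 9 promoters ranked among all peaks, 0 members had groups that did not overlap, by either scale. Among all 16660 promoters ranked that way, Nedd4L-cKO libraries lay above all WT libraries at 1.72% by pileup and 4.24% by fold enrichment, and WT libraries lay above at 1.82% and 1.4%. Ranked among promoter peaks alone, the Grb10 groups did not overlap by pileup (exact permutation p = 0.0286). The share of all promoters under that ranking was not computed.

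**Figure D2:**
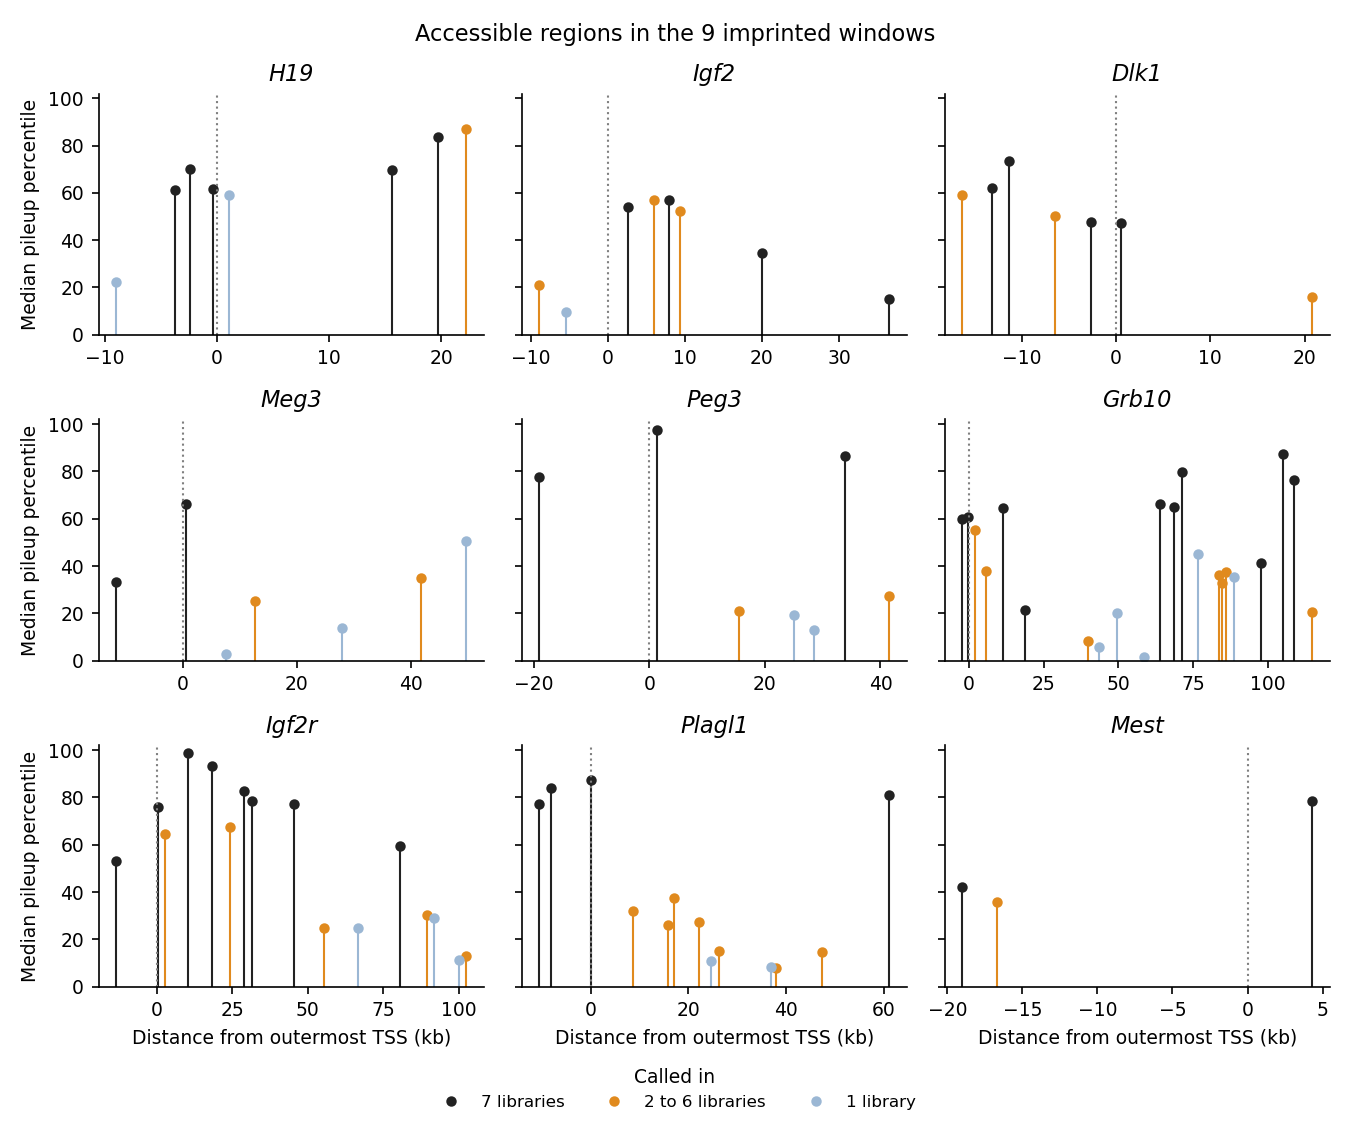
Regions in the 9 windows by the distance of their midpoint from the outermost TSS of the gene, in kb and positive in the direction of transcription (x axis), against the median pileup percentile over the libraries in which they were called (y axis, 0 to 100). Black regions were called in 7 libraries, orange in 2 to 6 and light blue in 1, and the strongest Igf2r regions lie inside the gene rather than at the dotted line of the start.

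Merging overlapping peaks of all libraries gave 91 regions in the windows, of 95163 in the genome. Of these 17 lay at promoters, 40 elsewhere in the gene spans, 18 upstream and 16 downstream. In all 7 libraries 42 were called, a share of 46.2% against 56% in the genome, and 18 were called in 1 library only, 19.8% against 14.7%. The 42 regions had a median pileup percentile of 68.0 and a median fold percentile of 33.1, where the genome had 60.9 for both. By fold enrichment 18 of 42 (42.9%) lay under the percentile 25, against 12.3% of all regions called in every library. The H19 window held most of these for its size, with 4 of 5, and Dlk1 had 3 of 4, while Meg3, Plagl1 and Mest had 0.

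Single-library regions were few in each library, from 0 in WT replicate 2 to 5 in Nedd4L-cKO replicate 4. Nedd4L-cKO replicate 4 was the deepest library, but WT replicate 3, with the fewest tags kept (14.4 M), had 4 such regions. No region was called in all libraries of one genotype and none of the other: the count was 0 of 91 in both directions, against 0.0694% of regions for Nedd4L-cKO and 0.082% for WT in the genome. The nearest was chr12:109582117-109583508 downstream of Meg3, with a peak in Nedd4L-cKO replicates 2, 3 and 4 and in no WT library. Without Nedd4L-cKO replicate 1 it would be the 1 such region.

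**Figure D3:**
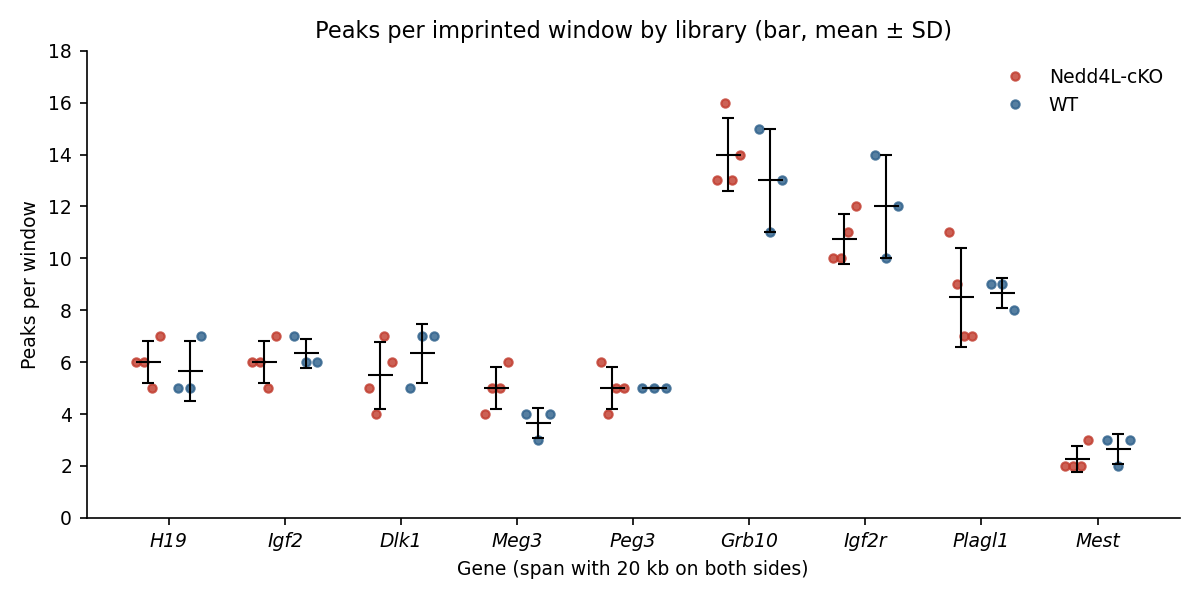
Number of peaks in each gene window (y axis) for the 4 Nedd4L-cKO and 3 WT libraries. Points are libraries, and the black bar shows the mean with its SD; Meg3 has means of 5 and 3.67, and the points of both genotypes share values or ranges in every window.

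The number of peaks per window did not separate the genotypes. All 9 windows together held 63, 62, 60 and 67 peaks in Nedd4L-cKO replicates 1 to 4 and 67, 58 and 65 in WT replicates 1 to 3. The lowest p was at Meg3, with 4, 5, 5 and 6 peaks in the Nedd4L-cKO and 4, 3 and 4 in the WT libraries. The difference of 1.33 peaks gave exact permutation p = 0.114, and the groups shared the value 4. The lowest p in the other 8 windows was 0.371, at Igf2r, with 10, 10, 11 and 12 peaks in the Nedd4L-cKO and 14, 10 and 12 in the WT libraries. Adjusted by Benjamini-Hochberg over 27211 genes, every p was 1. The adjusted p cannot decide on these windows. The smallest possible exact permutation p is 0.0286, so an adjusted p could be low only if most genes reached that floor. Groups failed to overlap in 0 of 9 windows, against 0.287% of genes with Nedd4L-cKO above and 0.32% with WT above. Without Nedd4L-cKO replicate 1, the Meg3 groups no longer overlapped and the count was 1 of 9. In the libraries of lane 1 it stayed at 0.

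**Figure D4:**
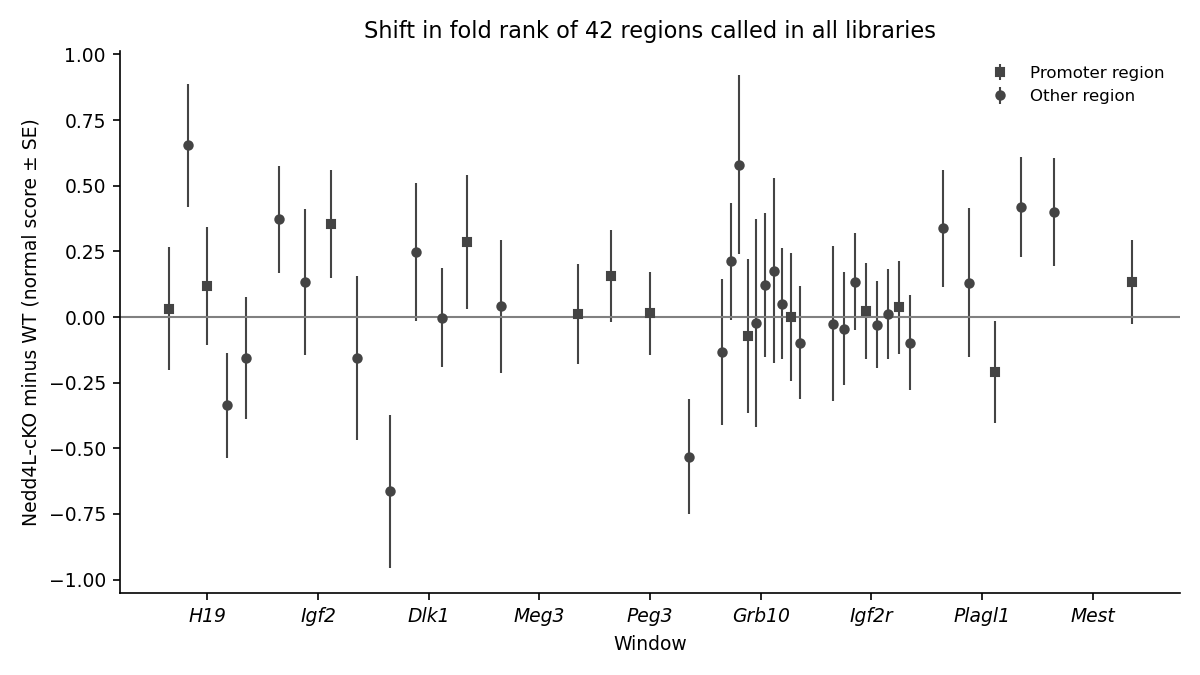
Difference in rank by fold enrichment, Nedd4L-cKO minus WT, for the 42 regions called in all 7 libraries, grouped by window (x axis), in normal scores (y axis, 1 unit is 1 SD of the ranks). Squares are promoter regions, circles other regions and bars the SE from limma; the differences run from -0.66 to 0.65.

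Rank shifts between genotypes were tested with limma over all 53245 regions called in all 7 libraries, on normal scores of the rank by fold enrichment. With Benjamini-Hochberg adjustment, 0 of 42 member regions passed 0.05, as did 0% of all regions, and the lowest adjusted p was 1.00. Unadjusted, 3 of 42 (7.14%) fell under 0.05, against 3.98% of all regions. They were in the windows of H19, Dlk1 and Peg3 and at none of their promoters.

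The H19 one, chr7:142561749-142563388, downstream of the gene, had fold percentiles of 3.99, 8.60, 25 and 17.6 in the Nedd4L-cKO and 3.27, 3.20 and 1.96 in the WT libraries, and the difference was 0.65 ± 0.23 (SE). The Peg3 one, chr7:6748718-6750174, upstream, had 48.5, 73.2, 65.7 and 72.6 in the Nedd4L-cKO and 74.2, 81.7 and 84.8 in the WT libraries, and the difference was -0.53 ± 0.22 (SE). In both, the libraries did not overlap between genotypes. The Dlk1 one, chr12:109439317-109439993, was lower in the Nedd4L-cKO libraries by -0.66 ± 0.29 (SE), but WT replicate 2, at 2.93, lay within the Nedd4L-cKO range of 1.51 to 4.66. The limma adjusted p (Benjamini-Hochberg) of each was 1.00.

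Groups did not overlap by fold rank in 3 of 42 member regions, 2 with Nedd4L-cKO above (4.76%), near H19 and Igf2, and 1 with WT above (2.38%), near Peg3. Over all regions the shares were 2.67% and 2.09%. The Igf2 one, chr7:142629229-142631367, was a weak region beyond the end of the gene, at pileup percentiles of 5.12 to 29.5, and its fold percentiles were parted by 35.1 in Nedd4L-cKO replicate 1 and 34.7 in WT replicate 1. The member regions' median difference was 0.03 normal scores, and that of all regions 0.01.

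Of 52 other imprinted genes listed, 50 had a TSS. Of these, 38 (76%) had a promoter peak in all 7 libraries, against 50.8% of all genes with a TSS. Another 7 had one in some libraries and 5 in none. The 5 without any were Slc22a18, Rian, Slc22a2, Ddc and Ins2. The list includes neighbours that share a member's region, such as Usp29, Hymai and Igf2os. Its 38 promoters had a median pileup percentile of 69.4 and a median fold percentile of 62.9, with Rasgrf1 lowest at 22.8 by pileup and Ube3a highest at 99.2. Among them, Airn had the lowest fold percentile, at 3.61, close to that of H19. In none of the 50 windows did the genotypes separate by number of peaks, against 0.287% of genes with Nedd4L-cKO above and 0.32% with WT above.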

How the data were processed

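The ATAC-seq libraries were trimmed by the authors with Trimmomatic 0.39, aligned to mm10 with BWA 0.7.17, filtered on mapping quality with SAMtools and freed of duplicates with Picard 2.26.3. The authors ran MACS2 2.2.7.1 in broad mode on single libraries with no control (a shift of -100 bp, an extension of 200 bp, q-value cutoffs of 0.1 and 0.05 for broad and narrow peaks). Per the file headers, pileup is a signal of extended-tag coverage in unscaled tags. The fold enrichment, as deposited, is a ratio to the background of the same library, genome-wide or over 10000 bp. The deposited p-value and q-value are given as -log10. The gapped list deposited by the authors marks narrow peaks inside broad ones, and its other columns are labels.

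As each library was called separately, values were compared as ranks within a library. Peaks on the 19 autosomes and on X and Y were used, and an overlap was at least 1 bp. TSSs came from RefSeq promoters on GRCm38.p6 (27024 genes), or from the outer end of the RefSeq span with the strand from GENCODE (5791 genes, H19 among them). Coordinates are 1-based. Artifact-prone regions were not masked. The genome of another build was not used.

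Exact permutation tests ran over all 35 splits of 7 libraries. Rank shifts were tested with limma 3.58.1 in R 4.3.3 with Benjamini-Hochberg adjustment. Tested on simulated data over 53245 regions, with 200 shifted, limma recovered 73% at a shift of 2 normal scores, with 8 false calls, and 0% at 1. All 7 libraries entered each test with no covariate. The libraries are from separate mice, and p-values measure the spread between them. Versions were matplotlib 3.10.9, pandas 2.3.3, scipy 1.17.1, numpy 2.4.6 and Python 3.11.15. Named regions were those at promoters, at the listed control stretches, the highest by pileup in a window and those with the lowest limma p. The members, lists and tests were chosen with earlier results of these data known. Alternatives included stricter peaks, other windows and starts, other ranks, a replicate block and leaving out each library. Leaving out libraries and the replicate block were added for promoter percentiles after the data were seen.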

Additional observations from a re-analysis of the deposited data

Results flagged for a closer look

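Among 33 measures of the members tested for an extreme library within the 4 Nedd4L-cKO libraries, 1 was extreme by Dixon's ratio: the Mest window held 3 peaks in Nedd4L-cKO replicate 4 and 2 in the other Nedd4L-cKO libraries. Chance marks about 1 in 20 where values are continuous. Where all but 1 library share a count, the ratio is 1 by construction, so this flag carries no weight. The WT libraries held 3, 2 and 3 peaks in the same window. Groups of 3 were not tested.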

How the results depend on the processing

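The call of a promoter peak in every library was the count most tied to peak strength: it was 9 of 9 by default and 4 with a -log10 q of at least 5. The count of windows whose genotypes did not overlap was 0 to 1 with 1 library left out, and that of regions called in 1 genotype alone also 0 to 1, in both cases 1 without Nedd4L-cKO replicate 1 and at Meg3. No member region passed limma's Benjamini-Hochberg threshold under any setting run. The labels do not say whether the replicate numbers mark pairs. Same-numbered libraries had correlations of -0.12, 0.03 and -0.12 between their deviations from the group means. Differently numbered libraries ran from -0.15 to 0.15. With the replicate block limma called 0 member regions. For peaks per window and percentiles, the block took the 3 same-numbered pairs and so left out Nedd4L-cKO replicate 4. The Plagl1 difference in peaks per window was then 0.33, and the pileup percentile differences were -0.29 at Igf2, -0.18 at Peg3 and -0.82 at Mest. They are the same differences as with that library left out, so they say nothing on pairing. Exact permutation within 3 pairs cannot pass 0.05.

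Directions that turned belonged to differences that passed no threshold in either setting. Apart from the wider promoter window described below and the replicate block described above, the cause was not tested. For peaks per window, with a -log10 q of at least 5 the difference (Nedd4L-cKO minus WT) was -0.083 at H19 and 0.25 at Mest. Among broad peaks that hold a narrow peak it was -0.58 at H19, -0.33 at Meg3, -1.25 at Grb10 and 0.42 at Igf2r, and with equally many peaks kept per library it was 0.5 at Igf2r. Counted in bases covered, it was -247 bp at H19. For percentiles, a promoter window of 2.5 kb gave -2.44 at H19 and -2.16 at Igf2 by pileup. By fold enrichment it gave -10.5 at H19, -1.88 at Igf2 and 1.93 at Grb10. This window took in further regions, so these values are not all from the peaks ranked before. At H19 both are those of chr7:142580108-142580917, 1962 bp from the TSS, and not of the promoter peak. At Grb10 the value is that of chr11:12025461-12026789, 1182 bp from the internal start. At Igf2 the window reached chr7:142663808-142664735, 2081 bp from a start. Ranking among promoter peaks gave -0.53 at Meg3 and -0.010 at Peg3 by fold enrichment.

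With 1 library left out, the difference in peaks at Plagl1 ran from -1 to 0.33. At Peg3, where it was 0 with all libraries, it ran from -0.33 to 0.33. By pileup, percentile differences ran from -3.64 to 6.19 at Igf2, -0.26 to 0.24 at Peg3, -1.53 to 2.97 at Mest, -1.77 to 5.28 at the Meg3 control stretch and -0.52 to 2.80 at Airn. By fold enrichment they ran from -0.34 to 2.49 at H19, -1.54 to 4.83 at Meg3, -5.88 to 3.15 at Grb10, -0.54 to 5.98 at Igf2r, -7.24 to 7.30 at the Meg3 control stretch and -0.65 to 0.60 at Airn. Other differences did not change sign but moved by over 1.5 times or fell to 0. By pileup these ran from 1.68 to 6.10 at H19, -4.35 to -0.14 at the H19 control stretch, 0.76 to 2.37 at Igf2r, -4.10 to -1.87 at Meg3 and -3.79 to -1.35 at Plagl1. By fold enrichment they ran from 5.90 to 16.4 at Dlk1, 0.034 to 1.58 at Peg3 and -6.07 to -2.20 at Plagl1. In peaks per window they ran from -1.5 to -0.33 at Dlk1, 0 to 2 at Grb10, 0 to 1 at H19, -0.67 to 0 at Igf2, -2.25 to -0.25 at Igf2r and -0.75 to -0.25 at Mest. At Grb10, H19 and Igf2 the difference thus vanished with some library left out. The exact permutation test has too few splits to reach 0.05 with a library left out, so it cannot decide on these differences. In the simulation with 4 and 3 libraries and 200 of 53245 regions shifted, limma recovered 0% at a shift of 1 normal score. The differences in the member regions, from -0.66 to 0.65, were smaller than that, and shifts of their size were not simulated.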
